A study of Homo sapiens with 18 samples.

Results

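KBM7 is a human chronic myelogenous leukaemia cell line with a nearly haploid genome. The libraries described here come from KBM7 cells exposed for 5 h to dCeMM-4, a compound known from its study as a degrader of cyclin K, or to the solvent DMSO. The members are the 3 libraries labelled Hit8, the code given for dCeMM-4, and the 3 DMSO libraries, 6 of the 18 libraries in the series. dCeMM-4 was given at 10 times its EC50, with no concentration in nM stated. The same cells were also exposed for 5 h to dCeMM-2 and dCeMM-3, each likewise at 10 times its own EC50, and to THZ531, a covalent inhibitor of CDK12 and CDK13, at 600 nM, with 3 libraries each. Those 9 libraries enter the text only as direct comparisons. The remaining 3 libraries, of cells exposed to dCeMM-1 at 10 times its EC50 for 5 h, serve here only in the estimate of the spread. Nothing in the labels says whether the 3 libraries per group are separate cultures, so all p-values measure only the spread between these libraries. All values are RNA; cyclin K protein was not measured.

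Cyclin K is the partner of the kinases CDK12 and CDK13, which phosphorylate the tail of RNA polymerase II and help it to travel through the body of a gene. Without CDK12 activity, polymerases are known to stop early and transcripts are cut and polyadenylated at sites inside introns, and long DNA repair genes such as BRCA1 are the textbook examples of the loss. Molecular glues of this kind bring the CDK12 and cyclin K pair to the adaptor DDB1 of a CUL4 ubiquitin ligase, so that cyclin K is ubiquitinated and destroyed.

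Poly(A)-selected RNA was sequenced after ERCC and SIRV spike-in RNAs had been added. Counts on genes came to between 16589288 and 17943571 per dCeMM-4 library and to 15812270, 16966951 and 4598576 in DMSO replicates 1, 2 and 3. DMSO replicate 3 was thus the shallow library, with 18325 genes detected where replicates 1 and 2 had 22280 and 22971. As a percent of all gene plus spike-in counts, the spike-in RNAs made up 0.202%, 0.167% and 0.168% in DMSO and 0.290%, 0.195% and 0.217% with dCeMM-4, a ratio of means of 1.31 (exact two-sided permutation test p = 0.2, where 3 against 3 libraries cannot go below 0.1). The groups overlapped, and dCeMM-4 replicate 1 was the highest of the 6. With dCeMM-2, dCeMM-3 and THZ531 the mean share was 0.512%, 0.542% and 0.531%, and each differed from that with dCeMM-4 at the smallest p the test allows (0.1). In bulk RNA, fewer cells and less RNA per cell cannot be told apart. Most markers of the labelled cell type were present. PTPRC, the pan-leukocyte phosphatase CD45, read (in CPM, counts scaled to the size of the library) 465, 423 and 439 CPM in DMSO and 231, 224 and 222 CPM with dCeMM-4. Of 12 myeloid progenitor markers, 10 passed the filter on low counts, and MPO and CD38 did not. CD34 and CSF2RA passed at low levels, 2.28 and 2.32 CPM on average in DMSO. Of 10 erythroid markers only EPOR passed, and the counts of ALAS2, HBB, HBA2, HBG1, HBG2, GYPB and KLF1 were 0 in all 6 libraries.

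Reads that fell in no annotated exon made up 6.62%, 7.42% and 7.43% of uniquely placed reads in DMSO and 11.2%, 11.4% and 12.7% with dCeMM-4. The means were 7.16% ± 0.465 and 11.8% ± 0.834 (SD, n = 3 each), a ratio of 1.64 (exact two-sided permutation test p = 0.1, the smallest possible). All 3 dCeMM-4 libraries lay above all 3 DMSO libraries. Whether these reads come from introns or from beyond gene ends cannot be read from the files. The 13 mitochondrially encoded mRNAs made up 3.36% ± 0.497 in DMSO and 3.63% ± 0.974 with dCeMM-4 (SD, n = 3 each, as a percent of gene counts), and the groups overlapped (exact permutation p = 0.7).

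**Figure D1:**
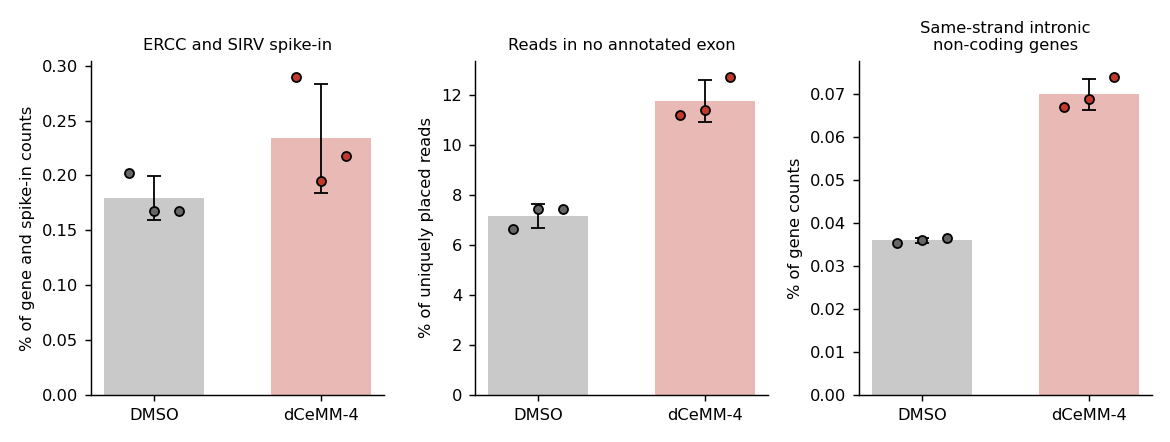
Bars are means of 3 libraries, error bars 1 SD and points single libraries, for DMSO (grey) and dCeMM-4 (red); the axes give the spike-in RNAs as a percent of gene and spike-in counts, reads in no annotated exon as a percent of uniquely placed reads, and same-strand intronic non-coding genes as a percent of gene counts. The spike-in shares overlap between groups, while the other two measures are higher in all 3 dCeMM-4 libraries.

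Most expressed genes differed between dCeMM-4 and DMSO. Of 15055 genes tested with edgeR's quasi-likelihood test at a Benjamini-Hochberg adjusted p under 0.05, 10270 (68.2%) were called, with 4951 higher (32.9% of all genes tested) and 5319 lower (35.3%). The change was at least 2-fold for 1318 of the higher and 2464 of the lower genes. Of the 12332 protein-coding genes tested 35% were higher and 39% lower. These calls use TMM, a scale that centres the bulk of genes at 0 (the median log2 fold change over all genes tested was 0.01). When libraries were scaled by the spike-in RNAs instead, the median over all genes moved to -0.56, and 948 genes were called higher (6.3%) and 7232 lower (48%). On both scales 947 genes were higher and 5319 lower. A rise on the TMM scale is therefore a rise relative to the bulk of expressed genes, and both scales are given below for most gene groups. Between 602 and 1363 genes were called higher on the spike-in scale when 1 library was left out, the largest number without dCeMM-4 replicate 1, whose spike-in share was the highest.

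**Figure D2:**
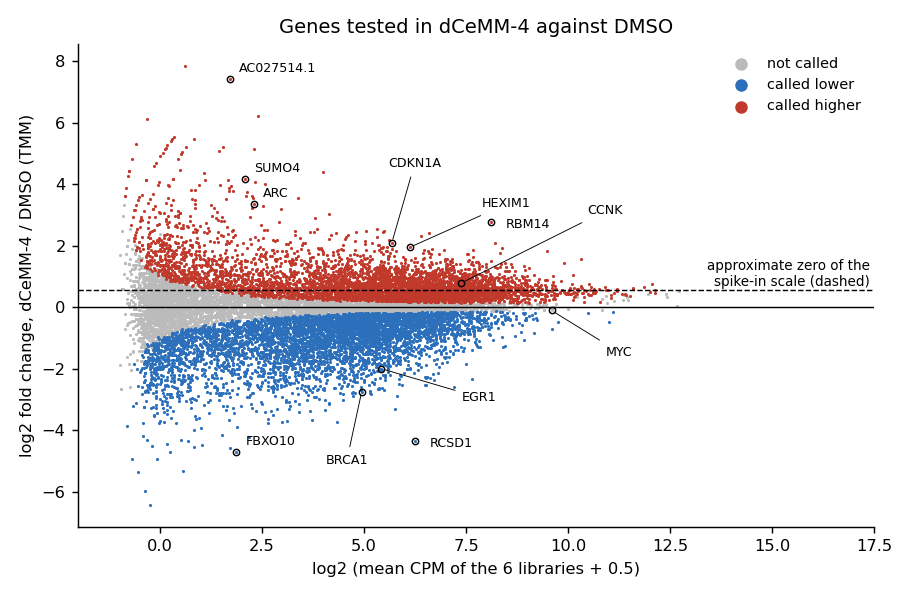
Each point is 1 of the 15055 genes tested; the horizontal axis is the log2 of the mean CPM (TMM-scaled) of the 6 libraries plus 0.5, and the vertical axis is the log2 fold change of dCeMM-4 over DMSO on the TMM scale. Red and blue points are genes called higher (4951) and lower (5319), grey points were not called, and the dashed line marks roughly where 0 lies on the spike-in scale.

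The transcript of the targeted cyclin was called lower on neither scale, and those of its kinases were close to their DMSO levels by TMM. CCNK, which encodes cyclin K (chr14:99481169-99535044, plus strand, GRCh38), read 123, 119 and 126 CPM in DMSO and 216, 208 and 204 CPM with dCeMM-4 (log2 fold change 0.78, SE 0.06, adjusted p = 4.26e-14). Its transcript was higher in all 3 dCeMM-4 libraries, but on the spike-in scale the log2 fold change was 0.2 (adjusted p = 0.427). CDK12 (chr17:39461511-39564907, plus strand) read 174, 180.4 and 182 CPM in DMSO and 182, 185 and 192 CPM with dCeMM-4, and CDK13 (chr7:39949646-40099580, plus strand) read 109, 111 and 109.8 CPM in DMSO and 120.0, 122 and 123 CPM with dCeMM-4. Neither kinase passed the test on the TMM scale, with log2 fold changes of 0.06 (SE 0.07, adjusted p = 0.43) and 0.15 (SE 0.07, adjusted p = 0.0504), although CDK13 was higher in every dCeMM-4 library. On the spike-in scale CDK12 had the opposite sign, -0.51 (adjusted p = 0.0278), and CDK13 stood at -0.42 (adjusted p = 0.0808). Of the ligase parts, the scaffold CUL4A fell and read 169, 168 and 167 CPM in DMSO and 93.9, 94.5 and 92.98 CPM with dCeMM-4 (log2 fold change -0.84, SE 0.06, adjusted p = 1.35e-14). The ring subunit RBX1 fell by 0.36 on the log2 scale, and both falls were larger on the spike-in scale (-1.41 and -0.92). The adaptor DDB1 rose by 0.32 and UBE2G1, a ubiquitin-conjugating enzyme that works with CUL4 ligases, by 0.64 with TMM. On the spike-in scale neither was called, and DDB1 had the opposite sign (-0.25). CUL4B stood at 0.22 by TMM and -0.33 by spike-ins. Its TMM call was lost without DMSO replicate 2 or 3 and without dCeMM-4 replicate 1 or 3.

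The protein-coding genes with the largest rises were mostly low in DMSO. SUMO4, a single-exon gene of the ubiquitin-like SUMO family, read 0.463, 0.261 and 0.575 CPM in DMSO and 6.59, 7.3 and 7.07 CPM with dCeMM-4 (log2 fold change 4.15, SE 0.3, adjusted p = 2.67e-15). ARC, an immediate early gene known from neurons, read 1.04, 0.678 and 0.383 CPM in DMSO and 7.09, 8.46 and 8.72 CPM with dCeMM-4 (log2 fold change 3.34, SE 0.21, adjusted p = 1.04e-16). RBM14, which encodes an RNA-binding transcriptional coactivator (chr11:66616582-66627347, plus strand), stood out by its level and read 65.8, 74.1 and 74.7 CPM in DMSO and 452, 504 and 485 CPM with dCeMM-4. That was 6.75-fold higher (log2 fold change 2.75, SE 0.07, adjusted p = 1.76e-27), and 2.18 (adjusted p = 2.99e-22) on the spike-in scale. RBM14 shares exons with the annotated read-through gene RBM14-RBM4 on the same strand, and how reads were divided between them is not given in the sources used here. AC013394.1, whose annotated span overlaps CHD2 on the same strand, rose by 3.78, and C11orf96, a single-exon gene, by 2.78. Only non-coding genes were sorted by place below, so whether SUMO4 or C11orf96 lies in an intron of a larger gene was not examined.

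Several of the other leading rises encode stress and signalling proteins. PLK2, a polo-like kinase induced by growth factors and p53, read 4.51, 4.18 and 3.07 CPM in DMSO and 25.4, 23.8 and 22.7 CPM with dCeMM-4 (log2 fold change 2.53, SE 0.12, adjusted p = 1.25e-20). SESN2, the stress-induced sestrin 2 that restrains mTORC1, read 9.6, 9.6 and 11.3 CPM in DMSO and 52.96, 55.3 and 55.97 CPM with dCeMM-4 (log2 fold change 2.47, SE 0.1, adjusted p = 1.97e-22). ARRDC3, an arrestin-domain protein gene induced by FOXO factors, read 12.03, 12.1 and 10.3 CPM in DMSO and 72.9, 63.9 and 66.2 CPM with dCeMM-4 (log2 fold change 2.52, SE 0.13, adjusted p = 4.72e-16). In each of these 3 genes the lowest dCeMM-4 library was well above the highest DMSO library. A lack of overlap was a condition for a leading rise, and 34.4% of all genes tested met it in this direction. The receptor tyrosine kinase gene EPHB3 rose by 2.46, the transcription factor gene DMRTA1 by 2.47, CCDC85A by 2.46 and FAM222A by 2.46. All 12 leading rises remained called on the spike-in scale, where they ran from 1.89 for SESN2 and EPHB3 to 3.63 for SUMO4.

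The largest falls left only traces of their transcripts. RCSD1, which encodes a protein that binds the actin capping protein CapZ (chr1:167630093-167706249, plus strand), read 153, 135 and 144 CPM in DMSO and 6.03, 7.13 and 7.74 CPM with dCeMM-4 (log2 fold change -4.36, SE 0.09, adjusted p = 4.25e-31). That left it 20.6-fold lower, and no dCeMM-4 library came near the DMSO range. FBXO10, an F-box gene of an SCF ubiquitin ligase (chr9:37510892-37576349, minus strand), read 5.38, 6.42 and 6.52 CPM in DMSO and 0.124, 0.232 and 0.305 CPM with dCeMM-4 (log2 fold change -4.71, SE 0.33, adjusted p = 1.52e-15). ZER1, a substrate receptor of CUL2 ligases, read 37.8, 35.7 and 36.6 CPM in DMSO and 2.61, 2.55 and 3.17 CPM with dCeMM-4 (log2 fold change -3.72, SE 0.12, adjusted p = 3.71e-25). LMAN2L, a lectin of the early secretory pathway, read 22.6, 24.6 and 23.8 CPM in DMSO and 1.74, 2.09 and 1.71 CPM with dCeMM-4 (log2 fold change -3.67, SE 0.14, adjusted p = 5.89e-23). In each of these 4 genes every dCeMM-4 library lay far below the DMSO range. A lack of overlap was likewise a condition for a leading fall, met in this direction by 36.1% of all genes tested. The chemokine receptor gene CCR7 fell by 3.91, the zinc finger gene ZNF510 by 3.78, KRCC1 by 3.73 and TRAF3IP3, an immune signalling adaptor, by 3.67. KIAA1024 fell by 3.5, P2RY14, a receptor for UDP-glucose, by 3.45, the autophagy gene TECPR2 by 3.42 and MMACHC, needed to process vitamin B12, by 3.38. In all, 21 genes with at least 5 CPM in DMSO were more than 10-fold lower with dCeMM-4.

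**Figure D3:**
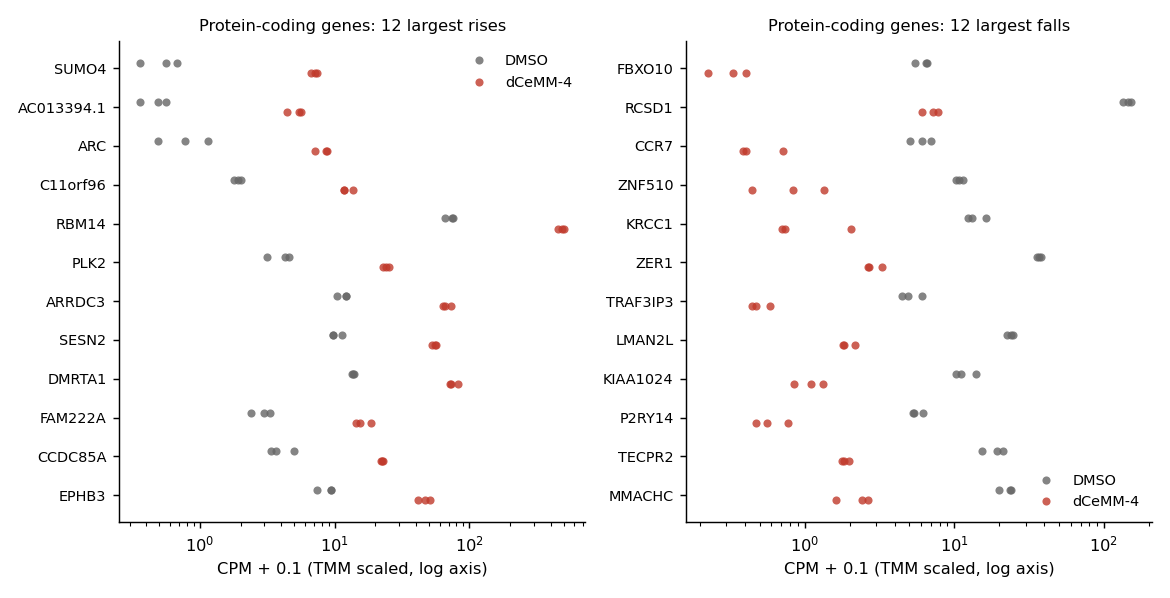
CPM plus 0.1 (TMM scaled, log axis) in single libraries for the 12 protein-coding genes with the largest rises (left) and the 12 with the largest falls (right); grey points are DMSO and red points dCeMM-4. No gene shown has overlapping groups, which was a condition for being shown; over all genes tested, 34.4% had all 3 dCeMM-4 libraries above DMSO and 36.1% had them all below.

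Among non-coding genes the leading rises and the leading falls lay in different places. All 4 leading rises were annotated as sense intronic, transcripts read from inside an intron of a larger gene on the same strand. All 4 leading falls began downstream of a protein-coding gene's end, on the same strand. The last 100 bases of 7 of them are shown because a cut and polyadenylated RNA ends there; they are the reference bases of the annotated transcripts (GENCODE 29, GRCh38, written 5′ to 3′ on the transcript's strand), and capitals mark the poly(A) signal hexamers AATAAA and ATTAAA. The first 4 rose and the last 3 fell.
AC027514.1 (chr18:62247313-62247412, plus strand): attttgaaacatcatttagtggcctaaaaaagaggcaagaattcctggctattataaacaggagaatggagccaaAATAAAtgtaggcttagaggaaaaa
AC040169.3 (chr16:84085979-84086078, minus strand): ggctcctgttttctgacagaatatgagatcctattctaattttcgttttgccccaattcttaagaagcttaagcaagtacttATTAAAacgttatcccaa
AC005632.2 (chr16:21627470-21627569, plus strand): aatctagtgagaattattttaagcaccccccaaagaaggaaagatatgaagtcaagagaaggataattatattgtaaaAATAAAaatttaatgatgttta
ALMS1-IT1 (chr2:73459383-73459482, plus strand): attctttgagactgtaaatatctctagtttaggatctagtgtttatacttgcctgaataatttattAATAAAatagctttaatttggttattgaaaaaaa
AC010969.2 (chr2:9939491-9939590, plus strand): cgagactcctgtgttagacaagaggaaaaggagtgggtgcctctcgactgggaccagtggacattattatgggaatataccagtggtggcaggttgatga
AC107027.3 (chr3:131455126-131455225, minus strand): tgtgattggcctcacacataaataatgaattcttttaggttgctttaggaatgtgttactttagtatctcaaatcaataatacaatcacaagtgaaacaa
AC007406.5 (chr12:273954-274053, minus strand): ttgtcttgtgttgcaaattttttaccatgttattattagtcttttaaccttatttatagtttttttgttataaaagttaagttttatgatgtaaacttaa
Each of the 4 that rose holds 1 such hexamer in this stretch, and none of the 3 shown that fell does. This contrast did not extend to the classes described below. In the last 50 bases, 57.8% of same-strand genes called lower past a gene end held a hexamer. Of same-strand intronic genes called higher, 40.2% did. AC027514.1 lies in an intron of RELCH and had 1 count in the 3 DMSO libraries together against 278 in the 3 dCeMM-4 libraries, a ratio of CPM of 233 (95% exact counting interval 41.5 to 9230, which covers counting error only). AC040169.3, in an intron of MBTPS1, read 0.174, 0.0522 and 0.192 CPM in DMSO and 7.83, 10.4 and 10.2 CPM with dCeMM-4 (log2 fold change 6.2, SE 0.34, adjusted p = 9.13e-19). AC005632.2, in an intron of METTL9, read 0.289, 0.261 and 0 CPM in DMSO and 7.71, 8.87 and 9.57 CPM with dCeMM-4 (log2 fold change 5.14, SE 0.3, adjusted p = 5.58e-18). ALMS1-IT1, in an intron of ALMS1, read 1.62, 1.36 and 0.767 CPM in DMSO and 29.7, 27.1 and 31.3 CPM with dCeMM-4 (log2 fold change 4.4, SE 0.17, adjusted p = 2.46e-23). Their host genes moved far less: the log2 fold change was 0.64 for RELCH, 0.26 for MBTPS1, 0.13 for METTL9 (not called) and 1.05 for ALMS1.

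The 4 that fell start 764 to 3614 bases past the end of the upstream gene. AC010969.2, 1944 bases past TAF1B, read 4.86, 4.23 and 7.09 CPM in DMSO and 0.186, 0.232 and 0.183 CPM with dCeMM-4 (log2 fold change -4.58, SE 0.35, adjusted p = 2.23e-14). AC125807.2, 764 bases past TEAD4, read 7.52, 8.3 and 7.09 CPM in DMSO and 0.186, 0.579 and 0.427 CPM with dCeMM-4 (log2 fold change -4.24, SE 0.28, adjusted p = 4.11e-16). AC107027.3, 3614 bases past MRPL3, read 15.3, 13.99 and 16.1 CPM in DMSO and 1.37, 0.869 and 1.16 CPM with dCeMM-4 (log2 fold change -3.72, SE 0.16, adjusted p = 1.11e-21). AC007406.5, 3006 bases past KDM5A, fell by 3.63. In every case no dCeMM-4 library overlapped DMSO, which was a condition for being named here. The genes upstream fell as well, by less: TAF1B stood at -1.68, TEAD4 at -0.56, MRPL3 at -0.88 and KDM5A at -0.56.

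The same split was seen across the non-coding genes sorted by place, a sorting chosen after these values had been seen. Of 2674 non-coding genes tested, 23.6% were called higher and 18.5% lower. Of the 316 that lie within an intron of a tested protein-coding gene on the same strand, 169 were higher (53.5%) and 21 lower, with a median log2 fold change of 1.18 by TMM and 0.62 by spike-ins. The median of their host genes was 0.08, and 259 of the 316 stood above their own host. In the 112 annotated as sense intronic the median was 1.64, and 75 were higher and 7 lower. Of the 167 intronic genes on the opposite strand, 35 were higher and 9 lower, and their median of 0.35 with TMM became -0.20 on the spike-in scale. As a percent of gene counts, intronic genes on the same strand made up 0.0353%, 0.0360% and 0.0366% in DMSO and 0.0671%, 0.0688% and 0.0741% with dCeMM-4, a ratio of means of 1.95 (exact two-sided permutation test p = 0.1, the smallest possible). Within this class the counts higher were 45 of 84 where up to 20% of the host gene had been passed, 35 of 65 from 20% to 40%, 42 of 64 from 40% to 60%, 32 of 59 from 60% to 80%, and 15 of 44 in the last 20%. The median DMSO level of the class was 0.432 CPM, so members could pass the low-count filter through a treated group alone, and how far that fixed the direction was not tested.

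Downstream of genes the direction was the reverse. Of 234 non-coding genes that start within 10 kb past the end of a protein-coding gene on the same strand, 102 were lower (43.6%) and 25 higher, with a median of -0.53 by TMM and -1.10 by spike-ins. The median of the genes upstream was 0.06, and 158 of the 234 stood below their own upstream gene. Within 1 kb, 16 of 52 were lower; from 1 to 5 kb, 54 of 115 were lower, with a median of -0.90; from 5 to 10 kb, 32 of 67 were lower, with a median of -0.76. On the opposite strand, 14 of 90 were lower and 24 higher. The strand setting of the counting is not given in the sources used here, so reads of a host gene that cross an unspliced intron, or run past its end, cannot be told apart from transcripts of the annotated non-coding gene. The hexamers AATAAA or ATTAAA, searched on the transcript strand, occurred in the last 50 bases of 40.2% of the 169 same-strand intronic genes called higher and 28.6% of the 147 others. Among those annotated as sense intronic they were in 64% of the 75 genes called higher and in 67.6% of the 37 not called higher, against 37.8% of all non-coding genes tested. Among genes past a gene end they occurred in 57.8% of those called lower and 45.5% of the others.

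**Figure D4:**
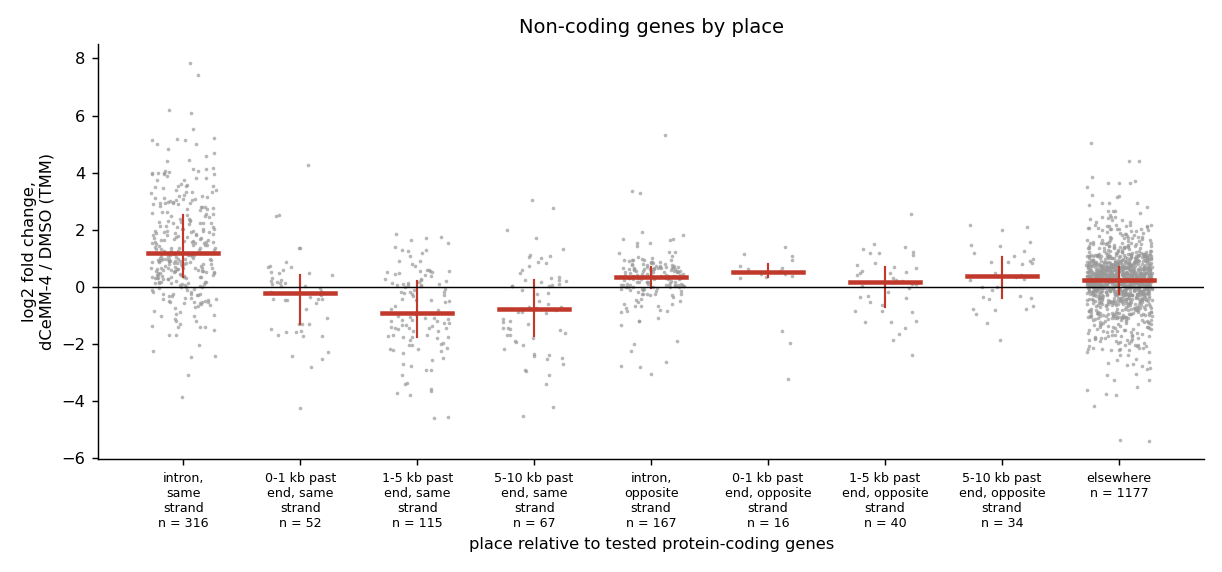
Points are single non-coding genes and the vertical axis is the log2 fold change of dCeMM-4 over DMSO (TMM); red bars are medians, red lines run from the first to the third quartile, and columns are places relative to tested protein-coding genes. Same-strand intronic genes have a median of 1.18, and same-strand genes 1 to 5 kb past a gene end a median of -0.90.

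Genes of homologous recombination and DNA damage signalling fell as a group. Of 31 genes measured, 26 fell and 2 rose, against 35.3% and 32.9% of all genes tested, and the median log2 fold change was -0.7 by TMM and -1.26 by spike-ins. BRCA1, the ubiquitin ligase that steers the resection of broken ends (chr17:43044295-43170245, minus strand), read 53.7, 48.3 and 56.2 CPM in DMSO and 8.08, 8.11 and 7.07 CPM with dCeMM-4 (log2 fold change -2.75, SE 0.12, adjusted p = 4.68e-22). RAD51D, another gene of this repair pathway, read 34.9, 34.5 and 34.7 CPM in DMSO and 6.4, 5.5 and 6.34 CPM with dCeMM-4 (log2 fold change -2.51, SE 0.12, adjusted p = 1.36e-20). RAD50, the coiled-coil ATPase of the MRN complex, read 80.7, 71.8 and 71.3 CPM in DMSO and 17.2, 14.3 and 15.3 CPM with dCeMM-4 (log2 fold change -2.26, SE 0.1, adjusted p = 1.09e-21). In all 3 genes every DMSO library lay far above every dCeMM-4 library. RAD51C fell by 1.6, ATRIP, the partner of ATR, by 2.0, RAD52 by 1.82, the chromatin adaptor MDC1 by 1.78 and BRCA2 by 1.51 (ATRIP, RAD52, MDC1 and BRCA2 were chosen after their values were seen). ATR, the kinase that signals stalled replication, read 96.1, 111 and 105 CPM in DMSO and 51.9, 51.6 and 62.6 CPM with dCeMM-4 (log2 fold change -0.91, SE 0.08, adjusted p = 3.56e-12). The 2 genes that rose were the checkpoint kinase gene CHEK1 (0.48) and RAD54B (0.4), and CLSPN, RAD51B and RBBP8, at 0.05, -0.25 and -0.06, were not called (all 5 named after their values were seen).

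In the Fanconi anaemia pathway of crosslink repair, 10 of 17 genes fell and 4 rose, against 35.3% and 32.9% of all genes tested. The median was -0.33 by TMM and -0.9 by spike-ins. SLX4, the scaffold of structure-specific nucleases, read 21.8, 25.6 and 25.3 CPM in DMSO and 2.8, 3.36 and 3.23 CPM with dCeMM-4 (log2 fold change -2.94, SE 0.13, adjusted p = 6.17e-21). ERCC4, the nuclease XPF that works with it, read 23.8, 19.9 and 18.8 CPM in DMSO and 3.23, 3.01 and 2.38 CPM with dCeMM-4 (log2 fold change -2.88, SE 0.16, adjusted p = 4.71e-18). Both transcripts were far below DMSO in every dCeMM-4 library. FANCF fell by 1.53 and the ubiquitin-conjugating enzyme gene UBE2T by 0.98. FANCD2, often named as a CDK12-dependent gene, read 23.9, 25.7 and 25.1 CPM in DMSO and 26.98, 26.2 and 33.2 CPM with dCeMM-4 (log2 fold change 0.21, SE 0.13, adjusted p = 0.148). It was not called with TMM, nor by spike-ins at -0.35 (adjusted p = 0.174), and the lowest dCeMM-4 library was just above the highest DMSO library.

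Gene length and exon number were compared with the changes. For long genes (100 kb or more) against short genes (under 20 kb), the difference in median log2 CPM of protein-coding genes was 0.564 ± 0.0505 in DMSO and 0.514 ± 0.0437 with dCeMM-4 (SD, n = 3 each), and the groups overlapped (exact permutation p = 0.5). With limits of 50 and 10 kb the difference between the groups was -0.13, and with 200 and 20 kb it was -0.14, with no overlap of the libraries in either (exact permutation p = 0.1, the smallest possible). With THZ531 the same measure at 100 and 20 kb was 0.913, and under dCeMM-3 it was 0.757. Under dCeMM-2 it was 0.588, and its libraries overlapped those of dCeMM-4 (exact permutation p = 0.3). By exon number, genes with 1 exon had a median log2 fold change of 0.27 (82 of 219 higher, 51 lower) and genes with 21 or more exons a median of -0.14 (534 of 1789 higher, 773 lower). Both medians were below 0 on the spike-in scale (-0.29 and -0.69). In these 2 classes 37.4% and 29.8% were higher and 23.3% and 43.2% lower by TMM, against 35% and 39% of all protein-coding genes tested. Their median levels in DMSO were 5.78 and 44.0 CPM, and how far the level shaped the calls was not tested. The zinc finger genes named ZNF on chromosome 19, a cluster of KRAB repressors and their relatives, moved lower: 106 of 175 fell and 29 rose by TMM, with a median of -0.64, and 128 were lower and 5 higher by spike-ins. The other 738 protein-coding genes of the chromosome had a median of 0.01, with 267 lower and 234 higher.

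Genes of the transcription machinery moved in both directions. POLR2A, the largest subunit of RNA polymerase II and the substrate of CDK12 and CDK13, read 280.3, 345 and 315 CPM in DMSO and 979, 1168 and 1165 CPM with dCeMM-4 (log2 fold change 1.82, SE 0.08, adjusted p = 5.98e-21). In contrast, 16 of 30 genes for polymerase II subunits and general transcription factors fell and 6 rose. Over all genes tested, 35.3% fell and 32.9% rose. The median of the list was -0.23 by TMM and -0.79 by spike-ins. GTF2H1, a core subunit of TFIIH, read 111, 101 and 106 CPM in DMSO and 26.4, 26.02 and 26.6 CPM with dCeMM-4 (log2 fold change -2.01, SE 0.1, adjusted p = 8.03e-20). TAF2 and TAF1 of TFIID fell by 1.83 and 1.54. POLR2A therefore rose while most genes of its list did not.

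Genes of P-TEFb, the kinase that releases paused polymerase, and of its regulators moved in both directions. HEXIM1, the inhibitor that holds P-TEFb in the 7SK complex, read 26.7, 28.96 and 30.9 CPM in DMSO and 105, 115 and 109 CPM with dCeMM-4 (log2 fold change 1.95, SE 0.11, adjusted p = 3.93e-16). CCNT2, a cyclin of P-TEFb, read 43.9, 40.2 and 46.6 CPM in DMSO and 147, 144 and 151 CPM with dCeMM-4 (log2 fold change 1.77, SE 0.1, adjusted p = 2.11e-17). Both were also called higher by spike-ins, at 1.37 and 1.19. Other genes of the 7SK complex fell: HEXIM2 by 1.91 (from a mean of 1.16 CPM in DMSO), LARP7 by 0.82 and MEPCE by 0.37. Each was also called lower by spike-ins (all named after their values were seen). The Mediator kinase CDK19 fell by 1.04, and CDK9 itself, the kinase of P-TEFb, stood at -0.0041 (adjusted p = 0.969) by TMM and was called lower by spike-ins at -0.57 (named after its value was seen). Over the list, 9 of 18 rose and 4 fell, against 32.9% and 35.3% of all genes tested. The median was 0.23 by TMM and -0.31 by spike-ins. Of the elongation factors, 16 of 25 rose and 6 fell, with a median of 0.45 by TMM and -0.1 by spike-ins. EAF1 and AFF1 of the super elongation complex rose by 1.01 and 0.95 and CDC73 of the PAF1 complex by 0.96, none of them called on the spike-in scale, while the histone chaperone SUPT6H fell by 0.85.

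More of the factors that cut and polyadenylate transcripts fell than rose. Of 35 genes of cleavage, polyadenylation, termination and Integrator, 22 fell and 10 rose, against 35.3% and 32.9% of all genes tested. The median was -0.58 by TMM and -1.12 by spike-ins. CSTF3, a subunit of the cleavage stimulation factor, read 76.2, 63.4 and 70.9 CPM in DMSO and 9.32, 12.9 and 10.9 CPM with dCeMM-4 (log2 fold change -2.66, SE 0.11, adjusted p = 1.08e-22). CPSF2, of the complex that reads the poly(A) signal and cuts, read 189, 162 and 174 CPM in DMSO and 33.9, 31.8 and 36.3 CPM with dCeMM-4 (log2 fold change -2.36, SE 0.08, adjusted p = 2.35e-25). Of Integrator, which ends transcription at snRNA and other genes, INTS6 fell by 2.12 and INTS8 by 1.57. CSTF3 is itself known to carry an intronic poly(A) site. The risers of this list included CPSF6 (1.17), CPSF1 (0.88) and SCAF8 (1.23), named after their values were seen.

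More splicing genes rose than fell by TMM, and the reverse held for SR and hnRNP genes by spike-ins, where 1 was higher and 11 lower. Of 33 SR and hnRNP genes, 19 rose and 7 fell, against 32.9% and 35.3% of all genes tested. The median was 0.28 by TMM and -0.27 by spike-ins. HNRNPU, a nuclear matrix-associated hnRNP, read 764, 711 and 716 CPM in DMSO and 1517, 1517 and 1453 CPM with dCeMM-4 (log2 fold change 1.03, SE 0.05, adjusted p = 4.5e-19). SRSF1, the founding SR protein, read 714, 622 and 635 CPM in DMSO and 325, 314 and 291 CPM with dCeMM-4 (log2 fold change -1.08, SE 0.07, adjusted p = 3.6e-17). Among 8 kinases of SR proteins and their partners, 6 rose and 1 fell, with a median of 0.82 by TMM and 0.27 by spike-ins. CLK1, a kinase whose own transcript is held back by retained introns, read 67.4, 70.2 and 77.05 CPM in DMSO and 196, 206 and 232 CPM with dCeMM-4 (log2 fold change 1.57, SE 0.09, adjusted p = 2.66e-17). CLK3 rose by 1.25 and RSRP1, an SR-related protein, by 1.85, and both were also called on the spike-in scale.

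Most immediate early genes rose, and EGR1 did not. Of 42 measured, 28 rose and 5 fell, against 32.9% and 35.3% of all genes tested. The median was 0.85 by TMM and 0.28 by spike-ins. By spike-ins 15 were higher and 7 lower. ATF3, a stress-induced transcription factor, read 13.2, 12.3 and 11.7 CPM in DMSO and 49.98, 52.9 and 53.04 CPM with dCeMM-4 (log2 fold change 2.05, SE 0.09, adjusted p = 1.74e-21). DUSP6, a phosphatase of the ERK kinases, read 148, 145 and 146 CPM in DMSO and 509.8, 489.6 and 488 CPM with dCeMM-4 (log2 fold change 1.76, SE 0.07, adjusted p = 1.67e-22). EGR1, a zinc finger factor induced by ERK signalling, went the other way and read 58.99, 70.4 and 73.2 CPM in DMSO and 16.3, 18.1 and 15.7 CPM with dCeMM-4 (log2 fold change -2.0, SE 0.1, adjusted p = 2.26e-19). The EGR1 levels in dCeMM-4 were below all DMSO libraries, while those of ATF3 and DUSP6 were above all of them. FOS fell too, by 0.88.

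The FOXO list rose without an exception among its called genes. 14 of 17 FOXO factors and targets rose and 0 fell with TMM, against 32.9% and 35.3% of all genes tested. The median was 1.03 by TMM and 0.47 by spike-ins. Scaled by spike-ins, 7 were higher and 3 lower. FOXO1, a transcription factor restrained by insulin and AKT signalling, read 10.9, 9.76 and 9.01 CPM in DMSO and 45.004, 41.4 and 46.8 CPM with dCeMM-4 (log2 fold change 2.14, SE 0.11, adjusted p = 1.02e-19). FOXO4 rose by 1.37 and ARRDC4, a relative of ARRDC3, by 1.3. The factors themselves and their targets were thus both among the genes that rose.

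Among genes activated by p53, 13 of 26 rose and 4 fell, against 32.9% and 35.3% of all genes tested. The median was 0.2 by TMM and -0.36 by spike-ins. CDKN1A, the cell cycle inhibitor p21, read 19.7, 18.4 and 20.1 CPM in DMSO and 80.995, 81.1 and 84.5 CPM with dCeMM-4 (log2 fold change 2.09, SE 0.08, adjusted p = 2.63e-23). GADD45A, a stress sensor, read 9.54, 10.4 and 7.86 CPM in DMSO and 32.01, 38.6 and 33.8 CPM with dCeMM-4 (log2 fold change 1.85, SE 0.11, adjusted p = 1.61e-17). The apoptosis gene BAX, also a p53 target, fell and read 26.8, 27.5 and 24.9 CPM in DMSO and 9.45, 9.33 and 7.44 CPM with dCeMM-4 (log2 fold change -1.61, SE 0.12, adjusted p = 6.44e-15). CDKN1A, GADD45A and SESN2 were higher in every dCeMM-4 library and BAX lower in every one. SESN2 and ATF3 also belong to the unfolded protein response and ATF4 list, in which 13 of 26 rose and 8 fell and the median was 0.09 by TMM and -0.48 by spike-ins. XBP1, a transcription factor of that response, fell by 0.72.

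More inflammatory genes fell than rose. Of 21 genes of the NF-kB pathway and its cytokines, 13 fell and 1 rose, against 35.3% and 32.9% of all genes tested. The median was -0.62 by TMM and -1.19 by spike-ins. RELB, a subunit of NF-kB, read 26.03, 28.4 and 24.9 CPM in DMSO and 5.91, 4.93 and 6.28 CPM with dCeMM-4 (log2 fold change -2.23, SE 0.11, adjusted p = 1.66e-19). IL1B, the cytokine interleukin 1 beta, read 47.3, 47.6 and 42.4 CPM in DMSO and 9.45, 10.8 and 10.1 CPM with dCeMM-4 (log2 fold change -2.19, SE 0.11, adjusted p = 9.74e-20). ICAM1, an adhesion molecule induced by NF-kB, read 92.6, 95.6 and 84.7 CPM in DMSO and 24.2, 25.7 and 25.4 CPM with dCeMM-4 (log2 fold change -1.87, SE 0.08, adjusted p = 3.64e-21). The one gene called higher was the subunit REL, at 0.49 (named after its value was seen). Of 20 interferon response genes, 11 fell and 4 rose, with a median of -0.24 by TMM and -0.81 by spike-ins. OAS1 fell by 1.5 and the chemokine CXCL10 by 1.29. In the death receptor pathway 8 of 12 fell, with a median of -0.63 by TMM and -1.19 by spike-ins, among them TNFSF10, the ligand TRAIL, by 1.31, RIPK1 by 1.64 and FADD by 1.28. The decoy TRAIL receptor TNFRSF10D was one of 3 that rose and read 27.01, 29.2 and 27.98 CPM in DMSO and 141, 139 and 142 CPM with dCeMM-4 (log2 fold change 2.32, SE 0.07, adjusted p = 5.1e-26).

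MYC was close to its DMSO level. This oncogene of growth control read 777, 837 and 791 CPM in DMSO and 722, 799 and 705 CPM with dCeMM-4 (log2 fold change -0.11, SE 0.06, adjusted p = 0.0925), and the groups overlapped. It was called lower without dCeMM-4 replicate 2 (-0.17, adjusted p = 0.0261) and on the spike-in scale, at -0.68 (adjusted p = 0.00162). The MAX network around it had 7 of 12 genes higher and 2 lower, with a median of 0.45 by TMM and -0.1 by spike-ins. MXI1 and MNT, which oppose MYC, rose by 1.19 and 1.07, and MLX fell by 1.73. Ribosome biogenesis genes, many of them MYC targets, were near the shares over all genes tested (32.9% higher and 35.3% lower), with 9 of 30 higher, 11 lower and a median of -0.01 by TMM and -0.57 by spike-ins. POLR1A, the largest subunit of RNA polymerase I, read 153, 171 and 164 CPM in DMSO and 29.4, 32.4 and 36.1 CPM with dCeMM-4 (log2 fold change -2.31, SE 0.08, adjusted p = 4.21e-24). All 72 cytosolic ribosomal protein genes were called higher with TMM, but on the spike-in scale 0 were called in either direction, and the median was 0.49 by TMM and -0.07 by spike-ins. The 15 snoRNA host genes followed the same course, with 15 higher by TMM and 1 by spike-ins, SNHG12 at 1.37 and 0.78. Nuclear-encoded respiratory chain genes had 27 of 40 higher and 5 lower by TMM, and 0 higher and 11 lower by spike-ins.

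Transcription factors of the blood lineage mostly fell. Of 22 measured, 13 fell and 5 rose, against 35.3% and 32.9% of all genes tested. The median was -0.45 by TMM and -1.0 by spike-ins. IKZF1, the lymphoid factor Ikaros, read 59.2, 61.8 and 64.4 CPM in DMSO and 15.6, 15.1 and 17.3 CPM with dCeMM-4 (log2 fold change -1.94, SE 0.08, adjusted p = 1.44e-21). FLI1 and ERG, ETS factors of blood progenitors, fell by 1.74 and 1.65, and SPI1, the myeloid factor PU.1, by 0.73. HOXA9, a homeobox gene of progenitor self-renewal, rose and read 23.4, 23.4 and 23.4 CPM in DMSO and 77.1, 75.8 and 69.02 CPM with dCeMM-4 (log2 fold change 1.66, SE 0.09, adjusted p = 1.45e-18). In the BCR-ABL and STAT5 list, ABL1, the kinase gene that is fused in chronic myelogenous leukaemia, fell by 1.25, whereas the STAT5 target SOCS2 rose by 1.31. Mitosis genes were near the shares over all genes tested (32.9% higher and 35.3% lower): 10 of 30 mitosis genes rose and 10 fell, with a median of 0.04 by TMM and -0.54 by spike-ins. CCNB1, the mitotic cyclin B1, fell by 1.41. Of 37 replication genes 16 rose and 16 fell, with a median of 0.01 by TMM and -0.57 by spike-ins. PCNA, the sliding clamp, rose by 0.99 with TMM, and the helicase subunit GINS1 fell by 2.45.

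**Figure D5:**
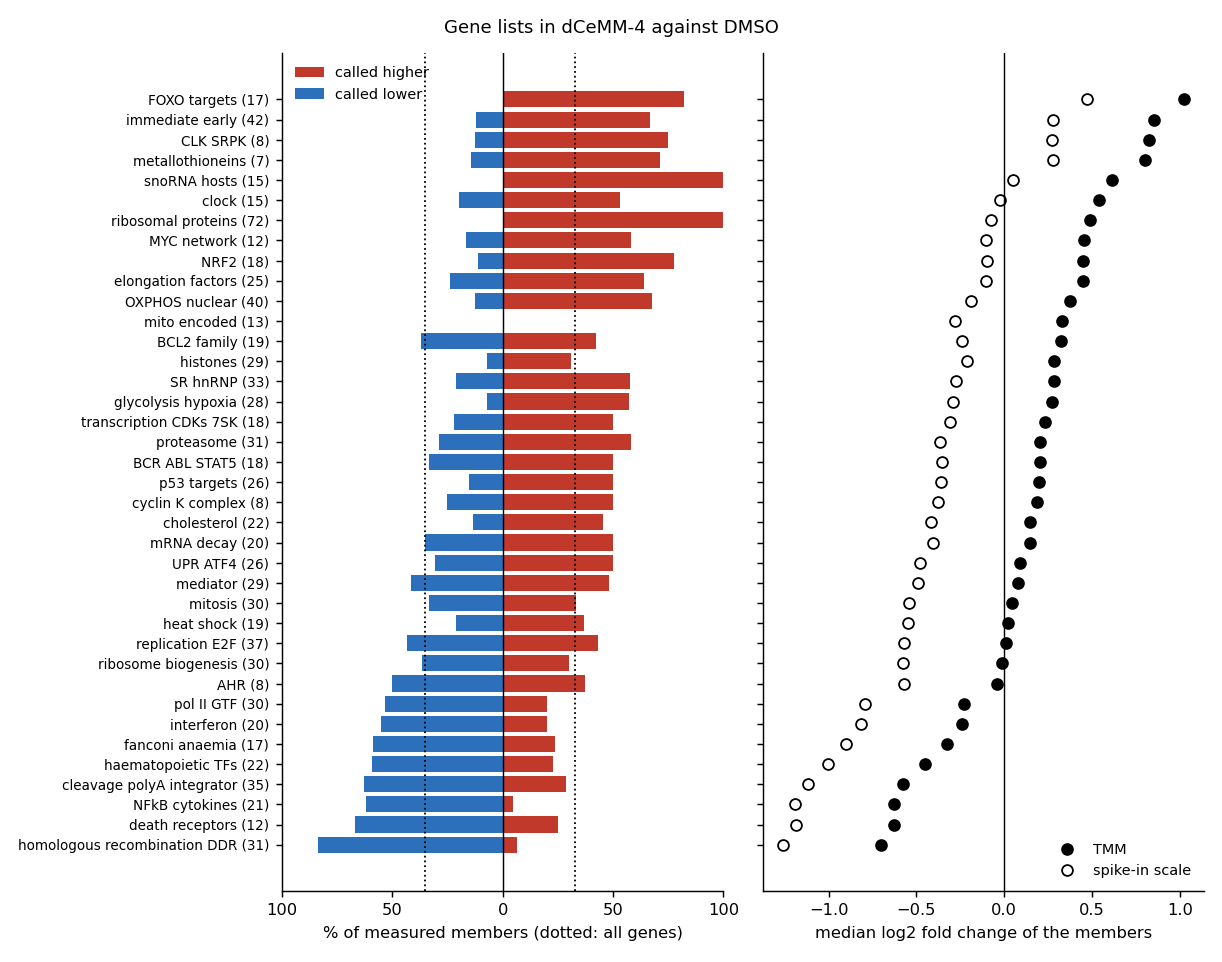
Left, the percent of measured members of each gene list called higher (red) and lower (blue) in dCeMM-4 against DMSO with TMM, with dotted lines at the percent of all genes tested (32.9% and 35.3%) and the number measured in brackets; right, the median log2 fold change of each list with TMM (filled) and on the spike-in scale (open). FOXO targets (median 1.03) and homologous recombination genes (median -0.70) stand at the ends with TMM.

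Direct contrasts, 3 in all, set dCeMM-4 beside the other compounds, with p-values adjusted over all genes in each. dCeMM-2 and dCeMM-3 share the same multiple of their EC50 and the same time, but their concentrations in nM are not stated. The THZ531 dose is given in another unit, so it is not matched. Against dCeMM-2, 5857 genes were higher with dCeMM-4 (38.9% of all genes tested) and 5782 lower (38.4%). Against dCeMM-3, 6197 were higher (41.2%) and 6252 lower (41.5%), and against THZ531, 6068 were higher (40.3%) and 5952 lower (39.5%). With spike-in scaling the balance was uneven: 10064 genes were higher with dCeMM-4 than under dCeMM-2 (66.8%) and 396 lower (2.63%), 9833 higher than under dCeMM-3 (65.3%) and 805 lower (5.35%), and 10353 higher than under THZ531 (68.8%) and 368 lower (2.44%).

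The genes of the targeted complex were among those that differed. CDK12 was at 186 ± 4.97 CPM with dCeMM-4, 43.5 ± 1.44 under dCeMM-2, 42.97 ± 5.06 under dCeMM-3 and 68.9 ± 2.77 under THZ531 (SD, n = 3 each). The log2 difference from dCeMM-2 was 2.1 (95% interval 1.94 to 2.26, adjusted p = 1.55e-24), and that from dCeMM-3 was 2.11 (95% interval 1.96 to 2.27, adjusted p = 3.73e-26). CCNK was at 209.6 ± 6.2 CPM with dCeMM-4, 181 ± 1.77 under dCeMM-2, 50.97 ± 2.82 under dCeMM-3 and 96.7 ± 1.91 under THZ531. Its difference from dCeMM-2 was small, 0.21 (95% interval 0.08 to 0.35, adjusted p = 0.00169), and that from dCeMM-3 was 2.04 (95% interval 1.9 to 2.19, adjusted p = 4.86e-27). For both genes dCeMM-4 gave the highest level of these 4 compounds. Every one of these differences was larger on the spike-in scale, a shift shared by the bulk of genes. The median log2 difference over all genes tested went from -0.06 by TMM to 1.15 by spike-ins against dCeMM-2, and from -0.08 to 1.17 against dCeMM-3.

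MYC, close to its DMSO level with dCeMM-4, was lower with each of the other compounds. It stood at 742 ± 49.8 CPM with dCeMM-4, 475 ± 25.6 under dCeMM-2, 17.04 ± 0.547 under dCeMM-3 and 281 ± 11.7 under THZ531. The log2 difference was 5.45 (95% interval 5.28 to 5.61, adjusted p = 2.14e-37) from dCeMM-3 and 1.4 (95% interval 1.27 to 1.53, adjusted p = 2.34e-22) from THZ531. CDKN1A was at 82.2 ± 2 CPM with dCeMM-4, below 329 ± 13.9 under dCeMM-2 and 504 ± 19.6 under THZ531 and above 34.5 ± 1.19 under dCeMM-3. BRCA1 was lowest with dCeMM-4, at 7.76 ± 0.592 CPM against 21.4 ± 2.11 under dCeMM-2, 27.2 ± 4.5 under dCeMM-3 and 18.8 ± 3.09 under THZ531. Its log2 difference from THZ531 was -1.28 (95% interval -1.55 to -1.0, adjusted p = 1.13e-11) by TMM and -0.02 by spike-ins, and from dCeMM-2 it was -1.47 (95% interval -1.75 to -1.2, adjusted p = 2.38e-13) and -0.25. RBM14 was highest with dCeMM-4, by 1.22 (95% interval 1.08 to 1.37, adjusted p = 1.04e-18) on the log2 scale over dCeMM-2 and 3.76 (95% interval 3.59 to 3.93, adjusted p = 1.5e-32) over dCeMM-3.

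The 5 protein-coding genes most above dCeMM-2 had log2 fold changes against DMSO of -0.79 to 0.01 with dCeMM-4. VDR, the vitamin D receptor, was at 5.9 ± 0.818 CPM with dCeMM-4 and 0.563 ± 0.185 under dCeMM-2, a log2 difference of 3.44 (95% interval 2.79 to 4.09, adjusted p = 3.07e-13). CPTP, a ceramide phosphate carrier, differed by 3.36, FDXACB1 by 3.18, RTN4RL1 by 3.12 and the ephrin EFNA4 by 3.1. Immediate early genes led in the other direction. FOS was at 7.01 ± 0.27 CPM with dCeMM-4 and 75.3 ± 5.6 under dCeMM-2, a log2 difference of -3.43 (95% interval -3.65 to -3.2, adjusted p = 4.34e-26). ARC, although higher than in DMSO, was lower than under dCeMM-2 by -3.32 (95% interval -3.56 to -3.09, adjusted p = 2.84e-25). IER3 (-4.6), the adaptor DAPP1 (-3.34) and the relaxin receptor RXFP1 (-3.03) completed the 5 largest.

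Against dCeMM-3, the gene most above it was close to 0 CPM under that compound, and was itself called lower with dCeMM-4 than in DMSO. OSM, the cytokine oncostatin M, was at 21.7 ± 1.42 CPM with dCeMM-4 and 0.263 ± 0.0552 under dCeMM-3, a log2 difference of 6.3 (95% interval 5.84 to 6.76, adjusted p = 1.6e-26). In DMSO it averaged 33.5 CPM, and its log2 fold change with dCeMM-4 against DMSO was -0.64. The homeobox gene CDX2 differed by 5.86, DUSP5, a phosphatase of ERK, by 5.83, the adaptor GAREM1 by 5.78 and the zinc finger factor GATA6 by 5.63. The genes lowest relative to dCeMM-3 were DAPP1 (-4.07), CXCL10 (-3.79), RXFP1 (-3.78), the endoribonuclease LACTB2 (-3.55) and the interleukin 10 receptor gene IL10RB (-3.5). DAPP1 and RXFP1 fell against DMSO with dCeMM-4, by 2.8 and 2.31.

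Against THZ531, ZNF57 (5.25), the deubiquitinase USP2 (4.52), EFNA4 (4.4), the guanine nucleotide exchange factor PLEKHG3 (4.35) and DLX6 (4.3) were the protein-coding genes most above it. ZNF57 was at 8.68 ± 1.24 CPM with dCeMM-4, 0.219 ± 0.17 under THZ531 and 8.66 ± 0.65 in DMSO. Among the 5 most below were IER3 (-5.06), FOS (-3.6), DAPP1 (-3.44) and the methyltransferase CSKMT (-3.02). FOS was at 85.2 ± 3.27 CPM under THZ531. IER3, FOS and DAPP1 were thus among the 5 lowest against both dCeMM-2 and THZ531.

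The intronic non-coding genes also set the compounds apart in their share of gene counts. Same-strand intronic genes took 0.0700% of gene counts with dCeMM-4, 0.0599% under dCeMM-2, 0.0490% under dCeMM-3 and 0.0558% under THZ531, and no library of the others reached the dCeMM-4 range (exact permutation p = 0.1 for each, the smallest possible). Of the 112 sense intronic genes, 48 were higher and 23 lower than under dCeMM-2, 61 higher and 20 lower than under dCeMM-3, and 52 higher and 25 lower than under THZ531. Over all genes tested, 38.9%, 41.2% and 40.3% were higher in these contrasts and 38.4%, 41.5% and 39.5% lower. The counts higher than under dCeMM-2 and THZ531 were thus not far from the shares over all genes. Among the genes past a gene end, whose shares here were near those of antisense genes (342, 377 and 363 of 569 lower in the 3 contrasts), 125 of 234 were lower than under dCeMM-2 and 18 higher, 141 lower and 21 higher than under dCeMM-3, and 146 lower and 12 higher than under THZ531. The share of reads in no annotated exon overlapped with that of dCeMM-2, at 11.8% and 11.7% (exact permutation p = 1).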

How the data were processed

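Poly(A)-selected RNA of KBM7 cells was extracted with spike-in RNAs added and made into total RNA libraries with a CORALL kit, per the labels' protocols; whether the spike-ins were set against cell number or RNA amount is not given in the sources used here. Per the submitters' processing notes the tools were HTSeq 0.11.2, Picard, STAR 2.5.2b and Trimmomatic 0.32, on GRCh38.p7; their roles and the strand setting are not given in the sources used here. The deposited files hold whole-number read counts per gene, not normalized. The 58051 gene rows were tested, without the 5 summary rows of HTSeq (their unassigned share is given above); 57447 matched GENCODE 29 (GRCh38), used for names and positions.

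edgeR 4.0.16 (R 4.3.3) took all 18 libraries, each group with its own coefficient, giving 12 residual degrees of freedom. Genes were filtered by filterByExpr, leaving 15055, scaled by TMM, and tested with the robust quasi-likelihood F test and Benjamini-Hochberg adjustment at 0.05. CPM are TMM scaled. SE is the size of the log2 fold change divided by the square root of F. The second scale used the summed ERCC and SIRV counts. Single values per library were compared with exact two-sided permutation tests. The script was tested on simulated data. DESeq2 1.42.0 and other settings were alternatives. The 46 gene lists were described by counts and medians and no set test was run; they and the members were chosen with earlier results of these data known.

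Genes were named by rule. Against DMSO these were the 12 largest rises and 12 largest falls among called protein-coding genes whose 3 and 3 libraries did not overlap and whose higher group averaged at least 5 CPM, and the 4 largest each way among non-coding genes. All genes of the cyclin K complex, up to 4 called members of lowest adjusted p per list, and BRCA1, ATR, FANCD2, MYC, HEXIM1 and CDKN1A were added, as were the 5 largest differences each way in each direct contrast. Replicate numbers were not shown to pair libraries, since the labels give them no meaning beyond numbering. A few genes and 1 sequence are not reported here.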

Additional observations from a re-analysis of the deposited data

How the results depend on the processing

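The number of genes called against DMSO (10270) lay between 8180 and 10471 with other scalings, DESeq2, no filter on low counts or only the 6 libraries, and between 9710 and 10014 with 1 library left out. With DESeq2 size factors inside edgeR 5803 were higher and 4668 lower, and with DESeq2 5464 and 4425. Scaling by spike-ins left 948 higher and 7232 lower, and between 7018 and 8390 genes called with 1 library also left out. Of 214 named genes, 8 that were called on one of the scales or both changed sign between them and on the spike-in scale stood at -0.51 (CDK12), -0.25 (DDB1), -0.33 (CUL4B), -0.0374 (SREBF2), -0.0271 (SQLE), -0.0164 (GATA2), -0.30 (KRT18) and -0.53 (RTN4RL1), 3 called on neither also changed sign (CDK13, FANCD2 and DLX6), and 44 others of the 214 lost their call there. Under all other settings 205 of the 214 kept direction and call, and with 1 library left out 4 lost their call (CUL4B, KRT18, COL1A1 and CPTP) and 0 changed direction. CDK12, CDK13 and FANCD2 were called higher with DESeq2 size factors, at 0.18, 0.27 and 0.34. Same-strand intronic genes called higher, 169 with TMM, numbered 120 on the spike-in scale and there 100 to 127 with 1 library left out (100, 105 and 112 without DMSO replicates 1, 2 and 3, and 103 and 102 without dCeMM-4 replicates 2 and 3). The long minus short difference of -0.05 became -0.13 (50 and 10 kb) and -0.14 (200 and 20 kb). With the replicate number as a block 10273 genes were called, and deviations of same-numbered libraries correlated at 0.10, 0.05 and 0.01. In the contrasts with dCeMM-2, dCeMM-3 and THZ531 the block gave 11616, 12462 and 12004 calls. The spike-in scale rests on under 0.3% of counts per dCeMM-4 or DMSO library, and DMSO replicate 3 limits low genes. Causes of these shifts were not tested.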

Other observations

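Over all genes tested, 32.9% were higher and 35.3% lower by TMM, and 6.3% and 48% by spike-ins. Of the non-coding genes, 23.6% were higher and 18.5% lower by TMM. Sense overlapping genes had 26 of 50 lower and 10 higher by TMM (31 and 6 by spike-ins), and antisense genes had 183 of 569 lower and 66 higher (242 and 23). Of 29 replication-dependent histone genes 9 rose and 2 fell with TMM; HIST2H2BE, whose transcript can also be polyadenylated, read 12.1, 10.9 and 12.3 CPM in DMSO and 39.8, 43.1 and 44.4 CPM with dCeMM-4 (log2 fold change 1.87, SE 0.1, adjusted p = 7.57e-19). Of 18 NRF2 targets and glutathione genes 14 rose by TMM and 0 by spike-ins, and NFE2L2, which encodes NRF2, fell by 0.82. In the mRNA decay list 10 of 20 rose and 7 fell; the deadenylase partners BTG1 and TOB1 rose by 1.83 and 1.8, and the deadenylase CNOT7 fell by 0.9. Of 15 circadian genes 8 rose and 3 fell by TMM, while by spike-ins 3 were higher and 5 lower; the repressor NFIL3 read 18.3, 16.1 and 18.97 CPM in DMSO and 66.2, 62.6 and 68.8 CPM with dCeMM-4 (log2 fold change 1.91, SE 0.12, adjusted p = 3.86e-16), and the related factor TEF fell by 1.43.

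The TMM counts that follow stand beside 32.9% higher and 35.3% lower over all genes tested. Mediator genes had 14 of 29 higher and 12 lower. MED29 read 32.1, 36.6 and 28.4 CPM in DMSO and 6.59, 7.01 and 6.77 CPM with dCeMM-4 (log2 fold change -2.28, SE 0.12, adjusted p = 1.69e-19), and MED13L stood at 0.96. Of 7 metallothionein and zinc transport genes 5 rose and MT1F fell, at -0.31. By spike-ins only MT2A was called higher, at 0.53 (1.09 by TMM), and MT1F and MTF1 were called lower. In the aryl hydrocarbon receptor list 3 of 8 rose and 4 fell; the receptor gene AHR stood at 1.13 and its repressor AHRR at -1.75. The BCL2 family had 8 of 19 higher and 7 lower, with the survival gene MCL1 at 0.89. Heat shock genes had 7 of 19 higher, near the share over all genes tested, and 4 lower, with the co-chaperone BAG3 at 1.17 and HSP90AA1 at -0.49. Glycolysis and hypoxia genes had 16 of 28 higher and 2 lower, with ADM at 2.01 and PFKP at -1.33. Proteasome genes had 18 of 31 higher and 9 lower, with PSMB5 at -1.17. Cholesterol synthesis genes had 10 of 22 higher and 3 lower, with STARD4 at 1.31. On the spike-in scale 6.3% of all genes tested were higher and 48% lower. There the counts higher and lower were 1 and 14 for Mediator, 1 and 7 for glycolysis, 0 and 12 for the proteasome and 1 and 10 for cholesterol. They were 3 and 4 for histones, 3 and 9 for mRNA decay, 2 and 4 for the aryl hydrocarbon receptor list, 1 and 8 for the BCL2 family and 2 and 10 for heat shock. The STAT5 list had 9 of 18 higher and 6 lower by TMM, and 2 higher and 8 lower by spike-ins, and 0 of 13 mitochondrially encoded mRNAs were called.

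Markers of other cell types were few: 3 of 7 B cell, 3 of 8 T and NK cell, 2 of 7 megakaryocyte, 2 of 9 monocyte and granulocyte, 3 of 7 epithelial and 3 of 8 fibroblast and endothelial markers were tested. Among them PAX5, EPOR and CD79B fell, by 1.72, 1.45 and 0.7, and CD79A, KRT8, KRT18 and COL1A1 rose with TMM, by 0.67, 0.56, 0.27 and 1.12, none of these 4 called on the spike-in scale. COL1A1 was not called without DMSO replicate 1 (adjusted p = 0.0635). Some markers of other cell types were not low: in DMSO the T cell marker CD3D averaged 65.1 CPM and PAX5 22.6 CPM. The myeloid progenitor markers KIT and PTPRC averaged 22.1 and 442 CPM there. Of the myeloid progenitor markers 5 fell and 2 rose.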
